A study of Caenorhabditis elegans with 40 samples.

Results

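The histone genes of *Caenorhabditis elegans* were described in RNA-seq libraries of whole L3 larvae. Members were all genes whose WBcel235 symbol begins with his-, 72 of the 46926 genes in the annotation. Of these, 57 had a transcript among the 19934 quantified genes, and 55 had reads in at least 1 of the 40 libraries. *his-13* and *his-44* were at 0 reads in all 40 libraries, and 15 members had no quantified transcript. By class, the members were 1 gene for the linker histone H1 (*his-24*), 17 for H2A, 16 for H2B, 15 for H3, 5 for H3.3-type histones and 16 for H4. The remaining 2, *his-39* and *his-73*, were left unclassified.

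In this study the TEV protease, switched on by heat shock, cut engineered kleisins of condensin or cohesin, and an auxin-inducible degron (AID) removed SDC-3. All 40 libraries came from strains that carried the TEV transgene *ubsSi20* on chromosome II, driven by the *hsp-16.2* heat shock promoter. In the paper's strain list, the TEV control strain is *unc-119(ed3)* with a *Cbr-unc-119* rescue on the transgene. The cohesin strains are given there as *unc-119(?)*, and the SCC-1 cleavage strain also carries *wIs54[scm::gfp]* on chromosome V. All animals, controls included, spent 3 h on food at 22 °C as synchronised L1 larvae, then 30 min of heat shock at 34 °C, and were collected after a further 19 h. Batch 1 held 4 libraries each of the TEV control, of *dpy-26(ubs4)* animals (DPY-26, the kleisin of condensin I), of *kle-2(ubs14)* animals (KLE-2, the kleisin of condensin II) and of *scc-1(ubs19)* animals (SCC-1, a cohesin kleisin). Batch 2 held 3 libraries each of the TEV control, of *coh-1(ubs26)* animals (COH-1, another cohesin kleisin) and of animals with both the *scc-1* and the *coh-1* sites. Batch 3 held 3 libraries each of the TEV control on 1 mM auxin, of animals that also carried TIR1 (*xeSi376*, expressed from the *eft-3* promoter) on auxin, and of animals with TIR1, the *dpy-26* site and the *sdc-3(ubs20)* degron on auxin. Batch 4 held 3 libraries each of the *sdc-3* degron strain, which also carries TIR1 and TEV, with 1 mM auxin or with ethanol alone. The effect of auxin itself and that of SDC-3 degradation cannot be told apart in batch 4, because both of its groups are the same strain.

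Histones wrap DNA into nucleosomes. An octamer of the core histones H2A, H2B, H3 and H4 holds the DNA, and the linker histone H1 binds where it enters and leaves. Most core histone genes are made in S phase as short intronless transcripts that end in a stem-loop rather than a poly(A) tail, whereas H3.3-type histones are made and deposited outside S phase as well. The libraries were made with an mRNA kit that selects poly(A) tails, so reads from intronless histone genes give the part of their RNA that was captured that way. In RNA from entire animals, fewer cells that make a histone and less of its RNA per cell cannot be told apart.

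Libraries held between 20460404 and 88427247 estimated reads (median 38087560), of which histone genes took 0.0618% to 0.1242%. Transcripts of *dpy-26* were lower after DPY-26 cleavage (log2 -0.69, adjusted p 0.00114), and *sdc-3* did not pass the test with auxin (log2 0.15, adjusted p 0.506), but cleavage and degradation act on the protein, so mRNA does not check the labels. KLE-2 cleavage replicate 3 and SDC-3 degron without auxin replicate 3 stood apart from their groups. Mitochondrial genes took 0.0667% of reads in the former and 0.893% to 0.999% in the other KLE-2 cleavage libraries, and 0.0284% in the latter against 0.618% and 0.693% in its group. Class sums and counts of called members in those comparisons are also given without it. Replicate 1 of all 6 groups in batches 2 and 3 had a lower mitochondrial share (0.232% to 0.299%) than replicates 2 and 3 of those groups (0.397% to 1.08%), which was shared by cases and controls. Markers of germline, epidermis, intestine, muscle and neurons were all tested, and sperm markers were close to 0 reads (at most 0.773 CPM, reads scaled to library totals with TMM within a batch).

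Most of the histone reads came from few genes, and those few have introns. Among H2A reads over all libraries, *his-35* gave 74.7%. Among H2B reads *his-41* gave 80.1%, and among H4 reads *his-37* gave 82.1%. These 3 genes lie side by side on chromosome V (WBcel235, 9544659 to 9547607) and each contains an intron. No H3 gene has an intron, and the highest, *his-9* (chromosome II, 13823648 to 13824058), held 19.3% of the H3 reads. The only other members with introns were *his-24*, *his-71*, *his-72* and *his-74*, and the other 65 are called intronless here because at least 1 annotated transcript of each has no intron. One of these, the H2A gene *his-57*, also has spliced transcripts of up to 3 exons.

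Per length, in TPM (reads divided by transcript length, scaled to a fixed total in each library), the 5 genes with the highest medians over the 40 libraries were the same spliced genes and the H3.3-type pair. The median was 316 TPM (range 222 to 423) for *his-41*, 304 (148 to 544) for *his-72*, 299 (199 to 601) for *his-37*, 201 (141 to 371) for *his-71* and 201 (153 to 343) for *his-35*. Their ranges overlap throughout, but these ranges pool all groups and batches, so they do not set an order within a group. In the batch 1 TEV control *his-41* lay at 311 to 351 TPM. The others of these genes lay at 148 to 254 TPM there. The H1 gene *his-24* followed with 86.9 TPM (48.4 to 129). The highest intronless member was the H2A gene *his-51* (chromosome V, 8849788 to 8850171) with 29.8 TPM (3.76 to 162), close to *his-74* at 25.0 and the H2B gene *his-11* at 21.0. The H3.3-type genes *his-69* and *his-70* lie together on chromosome III and held only 130 reads over all 40 libraries.

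**Figure D1:**
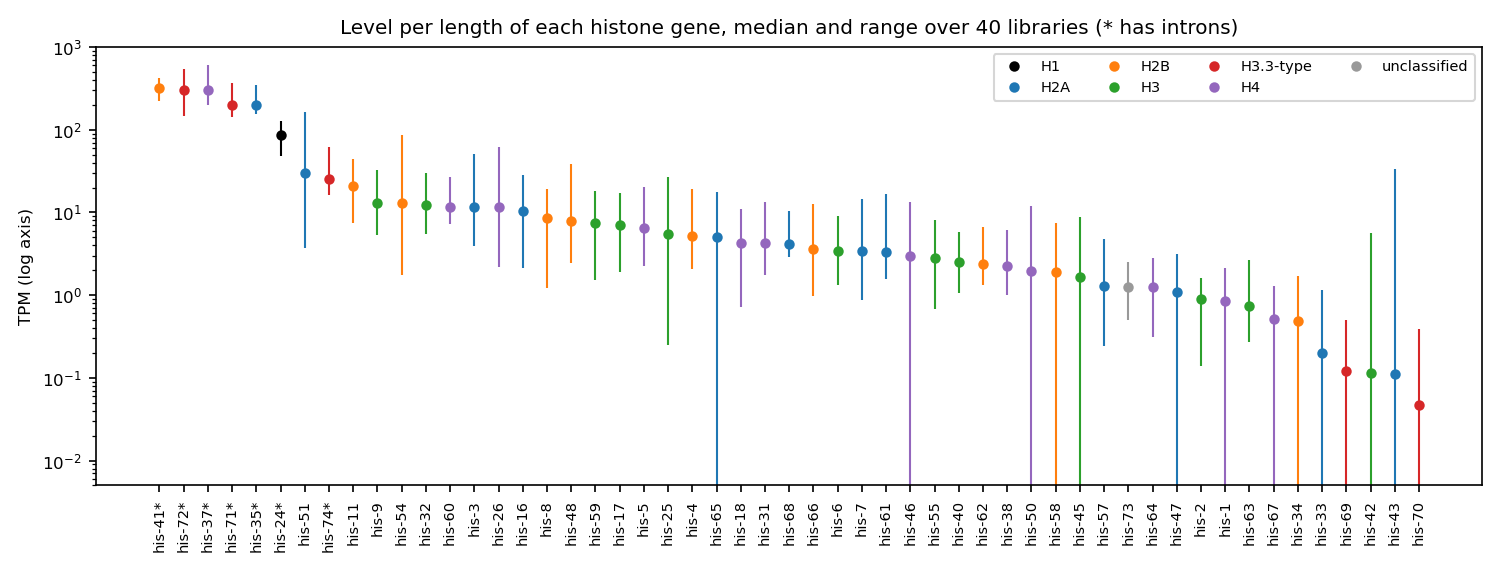
Levels of 53 histone genes in TPM on a log axis, as the median (point) and range (line) over the 40 libraries, ordered by median and coloured by class. The spliced genes *his-41*, *his-72*, *his-37*, *his-71* and *his-35* lie at 201 to 316 TPM, and the highest intronless gene, *his-51*, at 29.8.

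Many histone genes are copies of each other, which limits what single members can show. In the gene names of the annotation, 14 symbols stood for more than 1 member and covered 36 members. Of these members, 21 had a quantified transcript of their own (19 with reads) and 15 had none. The coding length was 381 nt in all 17 H2A genes, 408 nt in all 15 H3 genes and 309 nt in all 16 H4 genes. How the counting split reads between near-identical copies is uncertain, so class sums carry the comparisons below. The 72 genes form 18 clusters when neighbours under 20 kb apart are joined. The fullest, on chromosome II (13817760 to 13828697), holds 13 genes of which 7 were quantified. Chromosome V holds 27 members, IV holds 22, II holds 14, X holds 4, III holds 3 and I holds 2.

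Reads summed over the H3 class were lowest, relative to their control, when the SDC-3 degron strain was grown on auxin. H3 was at 12.3, 15.5 and 12.5 CPM with auxin, and at 50.9, 50.1 and 58.0 CPM without it. All 3 libraries with auxin were below all 3 without. H3 fell by 1.98 on the log2 scale (SE 0.14, 95% interval -2.32 to -1.65, edgeR adjusted p 0.00776), a 3.96-fold lower level. Without the library that stood apart the change was -1.92 (adjusted p 0.0132). Leaving out auxin replicate 1, auxin replicate 3 or no-auxin replicate 1 ended the call (adjusted p 0.0998, 0.0523 and 0.0633), with changes between -2.09 and -1.92 over the 6 omissions. In these fits 0, 1 and 0 genes of the genome were called.

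The other core classes, which hold a spliced gene, were also lower in every auxin library but did not pass the test. H2A was at 109, 124 and 116 CPM against 146, 167 and 212 (log2 -0.59, 95% interval -0.97 to -0.21, adjusted p 0.101). For H2B the libraries stood at 125, 128 and 125 CPM against 182, 177 and 227 (log2 -0.63, interval -0.95 to -0.32, adjusted p 0.0655). The H4 sum was 91.3, 82.0 and 110 CPM against 112, 123 and 182 (log2 -0.55, interval -1.06 to -0.05, adjusted p 0.195). H3.3-type histones (log2 -0.31, interval -0.72 to 0.10, adjusted p 0.337) and H1 (log2 -0.31, interval -1.18 to 0.56, adjusted p 0.651) overlapped between the groups. Without the no-auxin library that stood apart H2B was called lower (log2 -0.52, adjusted p 0.0296), and H2A (-0.43, 0.0512) and H4 (-0.31, 0.201) were not. H3.3-type histones (-0.13, 0.376) and H1 (0.16, 0.725) were not called then either.

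The intronless genes of H2A, H2B, H3 and H4 were also summed apart from the spliced trio *his-35*, *his-37* and *his-41*. This split was made after the values were seen, so it has no test. The intronless core genes together were at 45.7, 57.0 and 46.3 CPM with auxin and at 171, 193 and 191 CPM without, a 3.73-fold lower mean. The trio was at 291, 293 and 318 CPM with auxin and at 319, 323 and 488 CPM without, the 488 in the library that stood apart. The trio was thus also lower in every auxin library, with a 1.25-fold lower mean. For every 100 reads of the trio, intronless core genes had 14.6 to 19.5 reads with auxin and 39.1 to 59.8 without. By class, the intronless ratio of means was 3.63-fold lower for H2A, 3.93-fold for H2B and 3.19-fold for H4, beside 3.95-fold for H3.

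**Figure D2:**
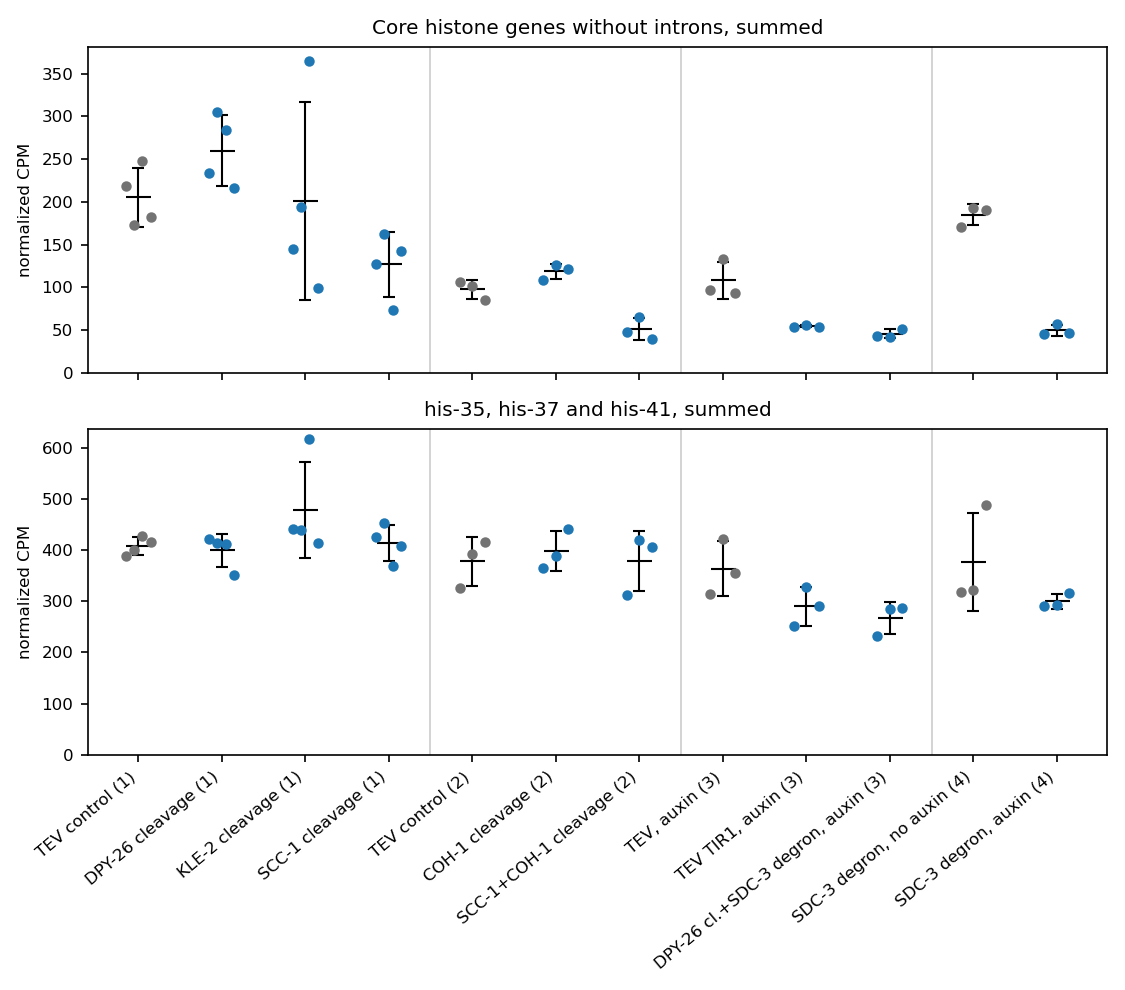
Sum of the intronless H2A, H2B, H3 and H4 genes (above) and of the spliced trio *his-35*, *his-37* and *his-41* (below), in CPM per library for the 12 groups, with the group mean and SD as bars and the batch in parentheses. The 3 SDC-3 degron libraries with auxin lie at 45.7 to 57.0 CPM for intronless genes, below the 171 to 193 of the same strain without auxin.

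Of the single members, 45 passed the filter on low counts in the SDC-3 comparison. The filter can be met by the libraries of 1 group alone, so counts of members describe only those that passed it. In this comparison 0.550% of all genes tested were called lower, and 23 of the 45 members were. No member was higher even at an unadjusted p under 0.05 (0 by edgeR and by DESeq2). The called genes were 5 for H2A, 8 for H2B, 6 for H3 and 4 for H4, and all of them are intronless. Among the 38 intronless members tested, 35 had every auxin library below every library without auxin, where 16.8% of all genes tested did, and their median change was -1.96 (all genes 0.00). Among the 7 members with introns, edgeR and DESeq2 called 0, none had an unadjusted p under 0.05, and changes lay between -0.40 and -0.13. Of these 7, 3 had every auxin library below every library without auxin. With no-auxin replicate 3 left out, 27 members were called lower. Leaving out auxin replicate 1, auxin replicate 3 or no-auxin replicate 1 left 0 called, and leaving out no-auxin replicate 2 left 6.

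The H4 gene *his-18* (chromosome V, 8898228 to 8898539) had the most negative change among the named members, at 0.362, 0.406 and 0.216 CPM with auxin and 2.46, 2.97 and 2.62 CPM without. It fell by 3.04 on the log2 scale (SE 0.30, adjusted p 0.0116). Its neighbour *his-17* (8897582 to 8897992), an H3 gene, was at 0.947, 1.58 and 1.24 CPM against 6.73, 6.92 and 7.20 (log2 -2.48, adjusted p 0.0110). The groups of both genes are far apart. On chromosome II, the H2B gene *his-11* was at 4.60, 4.96 and 3.92 CPM against 14.5, 16.1 and 16.3 (log2 -1.80, adjusted p 0.0109). The H3 gene *his-9* of the same cluster was at 3.59, 4.20 and 2.73 CPM against 12.5, 13.1 and 13.0 (log2 -1.88, adjusted p 0.0126). Among H2A genes, *his-3* was at 1.92, 3.79 and 2.06 CPM against 11.5, 17.9 and 13.1 (log2 -2.47, adjusted p 0.0233). *his-51*, *his-8* and *his-48* were called as well, at log2 -1.97, -2.19 and -2.20 (adjusted p 0.0176, 0.0109 and 0.0109).

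The lower levels were spread over the genome. Of 12 clusters with at least 2 quantified intronless members, 11 had summed reads that were lower in all 3 auxin libraries. Singly, 16.8% of all genes tested were lower in this way, but cluster sums are a different unit and hold the members counted above. Ratios of means of these 11 clusters ran from log2 -2.60 (chromosome V, 8889488 to 8898539) to -0.92 (chromosome X, 7309564 to 7310520). The remaining cluster was that of the nearly silent *his-69* and *his-70*. Of the 8 genes in the cluster at -2.60, 2 had a quantified transcript. Copies that share a symbol can lie in different clusters, such as *his-19* and *his-51*, so clusters are not separate measurements. The X cluster holds *his-38* (H4) and *his-40* (H3). *his-38* was at 0.808, 1.40 and 1.00 CPM against 1.93, 2.31 and 2.06 (log2 -0.99, interval -1.62 to -0.35, adjusted p 0.1), and *his-40* overlapped between groups (log2 -0.86, adjusted p 0.228). Neither passed the test.

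Genes of other lists moved beside these histones in batch 4. The 40 S phase genes tested (replication licensing, polymerases, nucleotide synthesis) summed to 847 to 1109 CPM with auxin and 1434 to 1471 CPM without, with a median change of -0.50 and 1 gene called lower, the ribonucleotide reductase gene *rnr-2* (log2 -1.04, adjusted p 0.0176). The 25 germline genes summed to 446 to 566 CPM against 628 to 716, with a median change of -0.26. Epidermal markers (*dpy-7*, *elt-1*, *lin-26*) summed to 190 to 421 CPM against 595 to 861, with a median change of -0.55 and 0 of 3 called. Intestinal markers summed to 4382 to 4763 CPM against 4876 to 8096. Histone genes outside the his- symbols summed to 196 to 221 CPM against 254 to 347, with a median change of -0.49. The part of these genes in the histone values was not tested.

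H3 was also called lower in a contrast that involved no degron. Batch 3 compared animals with TEV and TIR1 to animals with TEV alone, both on 1 mM auxin. H3 was at 14.6, 17.5 and 15.8 CPM with TIR1 and 28.9, 43.5 and 31.8 CPM without it, and the groups did not overlap. H3 fell by 1.10 on the log2 scale (SE 0.17, 95% interval -1.48 to -0.71, adjusted p 0.00338), a call that remained when each library was left out in turn (-1.21 to -0.91). H2A (log2 -0.41, interval -0.75 to -0.06, adjusted p 0.124), H2B (-0.40, -0.74 to -0.05, 0.133) and H4 (-0.36, -0.76 to 0.04, 0.227) did not pass. With the replicate number as a block they did (adjusted p 0.0322, 0.0186 and 0.0271).

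Intronless core genes were at 53.7, 56.4 and 53.8 CPM with TIR1 and at 97.5, 133 and 93.5 CPM with TEV alone, a 1.98-fold lower mean. Of the 12 intronless clusters, 8 were lower in all 3 libraries. Singly, 17.8% of all genes tested were lower in this way, but cluster sums are a different unit. Of 43 members tested, 13 were called lower, where 9.77% of all genes tested were called lower. The count was 6 without TEV control on auxin replicate 2, 8 without TIR1 replicate 3 and 9 to 13 in the other omissions. The 13 were 2 genes for H2A, 4 for H2B, 5 for H3 and 2 for H4, again all intronless. *his-18* was at 0.355, 0.244 and 0.365 CPM against 1.63, 1.94 and 1.46 (log2 -2.32, SE 0.27, adjusted p 0.00109). The H2B gene *his-8* was at 1.13, 0.940 and 1.26 CPM against 4.34, 5.24 and 3.17 (log2 -1.91, adjusted p 0.0015). *his-17* (log2 -1.49, adjusted p 0.00234) and *his-9* (log2 -1.14, adjusted p 0.0028) were also called. S phase genes summed to 1013 to 1187 CPM against 1212 to 1317, with 3 of 40 called lower. Epidermal markers summed to 200 to 337 CPM against 414 to 589, with a median change of -0.51. Of these 3 only *dpy-7* was called, lower, at means of 168 against 387 CPM. Germline genes overlapped, at 547 to 657 CPM against 567 to 578. Neuronal markers summed to 156 to 165 CPM against 145 to 154. Among them *unc-119*, mutated in the listed TEV control strain, was called higher, at means of 14.2 against 3.1 CPM (log2 2.20). TIR1 and other differences between these strains cannot be told apart. The part of the listed genes in the histone values was not tested.

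**Figure D3:**
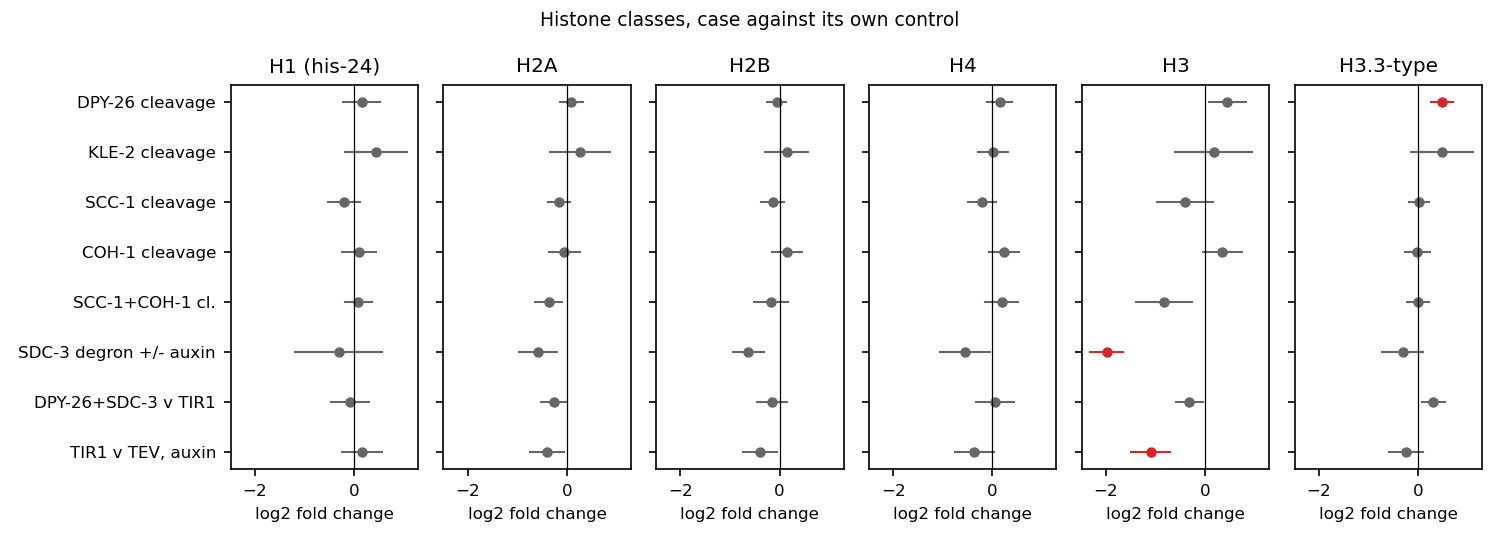
Log2 fold change of the 6 histone classes in the 8 comparisons, as the estimate (point) with its 95% interval (line), red where the adjusted p was under 0.05. Calls were made for H3 with SDC-3 degron and auxin (-1.98) and with TIR1 (-1.10), and for H3.3-type histones with DPY-26 cleavage (0.48).

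Cohesin cleavage was compared in both batches. When SCC-1 was cut, H3 was at 38, 43.6, 19.1 and 36.7 CPM, overlapping the 46.2, 36.0, 59.1 and 40.3 CPM of the TEV control (log2 -0.41, interval -0.97 to 0.16, adjusted p 0.261). No class was called by edgeR, with 0 classes at an unadjusted p under 0.05 and 0 by DESeq2. The intronless core genes together were at 127, 163, 74 and 143 CPM after SCC-1 cleavage and 218, 173, 248 and 182 CPM in the control, a 1.62-fold lower mean without overlap. The spliced trio did not follow, at 426, 453, 370 and 409 CPM against 388, 400, 428 and 416. Epidermal markers summed to 362 to 685 CPM against 204 to 359 in the control, above it without overlap. Of these 3 only *dpy-7* was called, higher (log2 1.29), at means of 444 against 182 CPM. The median change of the 3 markers was 0.20. S phase genes overlapped, at 1096 to 1377 CPM against 1323 to 1402. Of these, 6 of 40 were called lower, a share close to the 14.6% of all genes tested that were. Their part in the histone values was not tested.

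Of 50 members tested, 7 were called, all lower, after SCC-1 cleavage, where 14.6% of all genes tested were called lower, so their share was close to the background. The most abundant of them, *his-51*, was at 14.1, 22.3, 7.91 and 22.9 CPM against 46.1, 44.2, 41.2 and 38.3 (log2 -1.34, SE 0.29, adjusted p 0.00967). *his-8* was at 2.64, 4.14, 2.15 and 2.99 CPM against 7.69, 5.13, 10.5 and 6.20 (log2 -1.32, adjusted p 0.00638). *his-11* (log2 -1.14, adjusted p 0.0134), the H2B gene *his-54* (-1.02, 0.0407) and the X-linked *his-38* (-0.69, 0.0144) were called too. SCC-1 cleavage replicate 3 was lowest of its group for each of these genes. *his-51* differed between batches, at 38.3 to 46.1 CPM in the batch 1 control and 4.32 to 14.3 CPM in the controls of the other batches, where values are normalised separately.

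Cutting SCC-1 and COH-1 together gave a like picture in batch 2. H3 was at 13.8, 23.5 and 12.7 CPM against 27.4, 32.8 and 27.7 in the control, without overlap, and just missed the threshold (log2 -0.83, SE 0.24, interval -1.40 to -0.26, adjusted p 0.0512). H2A was at 107, 134 and 130 CPM against 148, 160 and 167 (log2 -0.37, interval -0.64 to -0.09, adjusted p 0.0636). edgeR called 0 of 6 classes, 2 had an unadjusted p under 0.05, and DESeq2 called 2, as did edgeR with the replicate number as a block. Intronless core genes were at 48.2, 64.8 and 39.8 CPM against 106, 102 and 85.3, a 1.92-fold lower mean, and had 9.79 to 15.4 reads for every 100 reads of the spliced trio, where the control had 20.5 to 32.7.

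Of 44 members tested, 6 were called, all lower, where 11.0% of all genes tested were called lower. The count was 0 without replicate 1 or replicate 3 of the cleavage group, 3 without control replicate 1, 12 with the block, and 12 lower and 1 higher with DESeq2. *his-11* was at 2.78, 5.20 and 2.75 CPM against 8.79, 15.8 and 8.19 (log2 -1.63, SE 0.36, adjusted p 0.0237). The H2A gene *his-7* was at 0.490, 0.627 and 0.603 CPM against 1.56, 1.11 and 1.67 (log2 -1.36, adjusted p 0.0142). The X-linked H3 gene *his-40* was at 0.549, 0.701 and 0.453 CPM against 1.18, 1.25 and 1.28 (log2 -1.13, adjusted p 0.0189). S phase genes summed to 931 to 952 CPM against 1172 to 1328 and germline genes to 391 to 436 CPM against 538 to 744. In these lists 23 of 40 and 13 of 24 genes tested were called lower. Among germline markers 4 of 5 were called lower, with *glh-1*, *pgl-1*, *pgl-3*, *glp-1* and *gld-1* summing to 153 to 180 CPM against 244 to 364. Their part in the histone values was not tested.

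No histone class or member was called after COH-1 cleavage alone. H3 was at 29.7, 44.2 and 37.6 CPM, overlapping the same control (log2 0.34, interval -0.05 to 0.74, adjusted p 0.811), and the intronless sum was at 109, 126 and 121 CPM, 1.21-fold above the control's 106, 102 and 85.3 without overlap. edgeR called 0 of 45 members, where 0.00719% of all genes tested were called. With the replicate number as a block it called 0 members and 0 classes as well. The paper, with DESeq2 and its own filters, reports many genes up and down after COH-1 cleavage, most by small amounts. Because the main fit called almost no gene of any kind, the lack of histone calls does not show that histone genes were unchanged. An unadjusted p under 0.05 was seen for 2 members, both higher, and DESeq2 called 0. Among classes, edgeR and DESeq2 called 0, and 0 had an unadjusted p under 0.05.

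**Figure D4:**
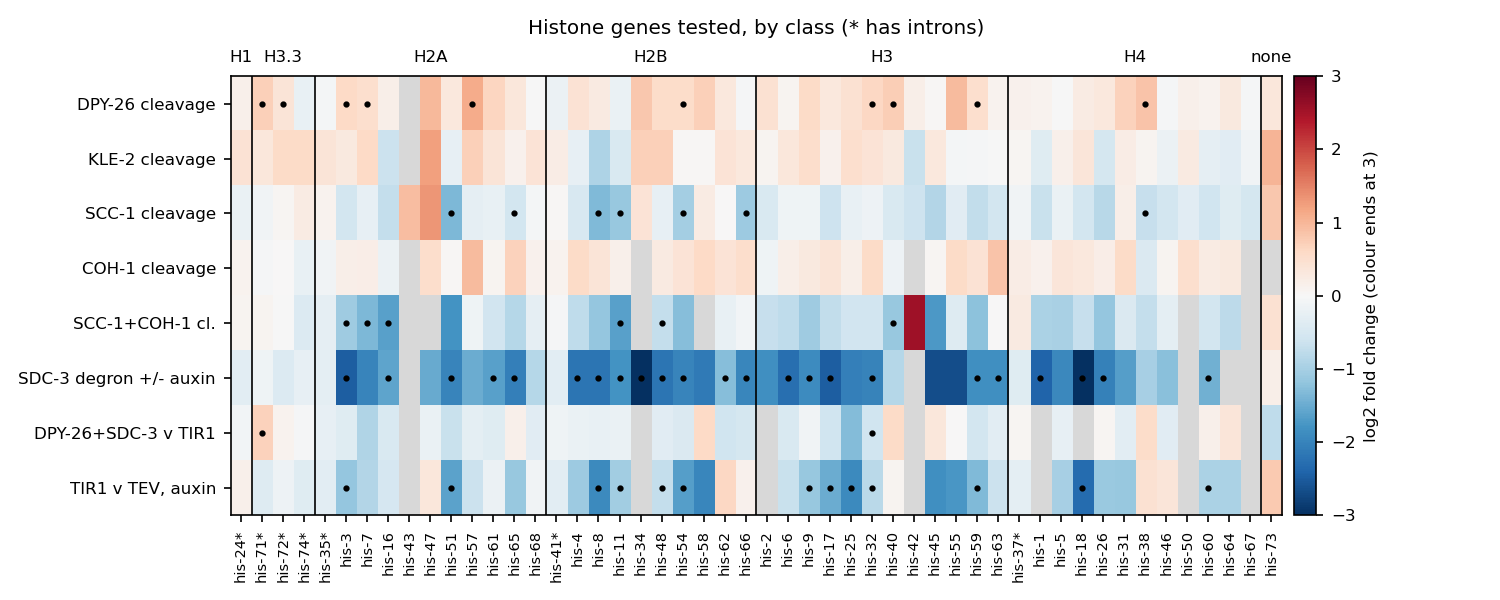
Heat map of the log2 fold change of each tested histone gene (columns, by class) in the 8 comparisons (rows), with a black dot for an adjusted p under 0.05, an asterisk for genes with introns and grey for genes not tested. Dots in the SDC-3 degron row lie on 23 intronless genes and on none of the 7 with introns.

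After DPY-26 cleavage the called histone genes were higher. DPY-26 is shared by condensin I and by the dosage compensation complex, which lowers expression from both X chromosomes of hermaphrodites and which SDC-3 helps to recruit. Of 49 members tested, 10 were called, all higher, where 15.5% of all genes tested were called higher, so their share was slightly above the background. On X, 3 of the 4 members were called higher beside 67.7% of X-linked genes, and on autosomes 7 of 45 were, beside 5.93% of autosomal genes. The count of called members was 4 without control replicate 2 or 4, 5 without cleavage replicate 1 or 3, 6 without cleavage replicate 2, 7 to 11 in the other omissions, and 2 when all groups of the batch shared a fit. Of 40 S phase genes 6 were called lower, as were 2 of 24 germline genes, where 11.9% of all genes tested were called lower. Body wall muscle markers summed to 4063 to 5682 CPM against 5759 to 6683, with *unc-54* called lower (log2 -0.46). Intestinal markers overlapped, at 2288 to 3203 CPM against 2683 to 2792 (median change -0.01), although *ges-1* among them was called lower (-0.45). Neuronal markers summed to 159 to 214 CPM against 148 to 158, with *unc-119*, mutated in the listed TEV control strain, called higher (1.82). The part of these genes in the histone values was not tested.

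The X-linked H3.3-type gene *his-71* (chromosome X, 7981382 to 7982070) was at 149, 172, 145 and 134 CPM after cleavage and at 94.0, 87.4, 94.9 and 85 CPM in the control. The groups were well apart, and the gene rose by 0.71 on the log2 scale (SE 0.09, 95% interval 0.51 to 0.91, adjusted p 0.000989), beside a median of 0.61 over X-linked genes. *his-38* was at 2.32, 1.92, 2.45 and 1.86 CPM against 1.04, 1.06, 1.42 and 1.15 (log2 0.85, SE 0.16, adjusted p 0.00545). *his-40*, the next gene on the chromosome, was at 2.14, 2.09, 2.47 and 2.22 CPM against 1.23, 1.02, 1.76 and 1.28 (log2 0.73, SE 0.17, adjusted p 0.0150). Each of these calls remained when any library was left out. The H1 gene *his-24*, also on X (14490094 to 14491119), was at 82.7, 69.3, 102 and 91.0 CPM against 84.5, 55.9, 92.5 and 73.3, and overlapped (log2 0.15, interval -0.22 to 0.53, adjusted p 0.524).

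As a class, H3.3-type histones rose after DPY-26 cleavage, from 271, 249, 257 and 238 CPM to 379, 400, 352 and 304 CPM (log2 0.48, SE 0.10, interval 0.26 to 0.70, adjusted p 0.00806). The call remained when any of the 8 libraries was left out (0.44 to 0.55) and was lost when all groups of the batch shared a fit (adjusted p 0.156). The class joins *his-71* with genes on autosomes. On chromosome III *his-72* was at 219, 215, 195 and 159 CPM against 162, 147, 149 and 141 (log2 0.38, adjusted p 0.0318), a call that remained in 2 of 8 omissions. On chromosome V *his-74* was at 11.2, 13.2, 12.6 and 11.2 CPM against 15.2, 14.7, 13.9 and 12 (log2 -0.23, SE 0.10, adjusted p 0.121). H3 was at 59.4, 70.2, 70.2 and 50.6 CPM (log2 0.45, interval 0.07 to 0.82, adjusted p 0.0733), with the intronless H2A gene *his-3* called higher at 10.6, 10.5, 13.3 and 9.95 CPM against 6.55, 6.25, 8.52 and 7.70 (log2 0.59, adjusted p 0.0113). H2A, H2B and H4 as sums lay between -0.06 and 0.15.

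**Figure D5:**
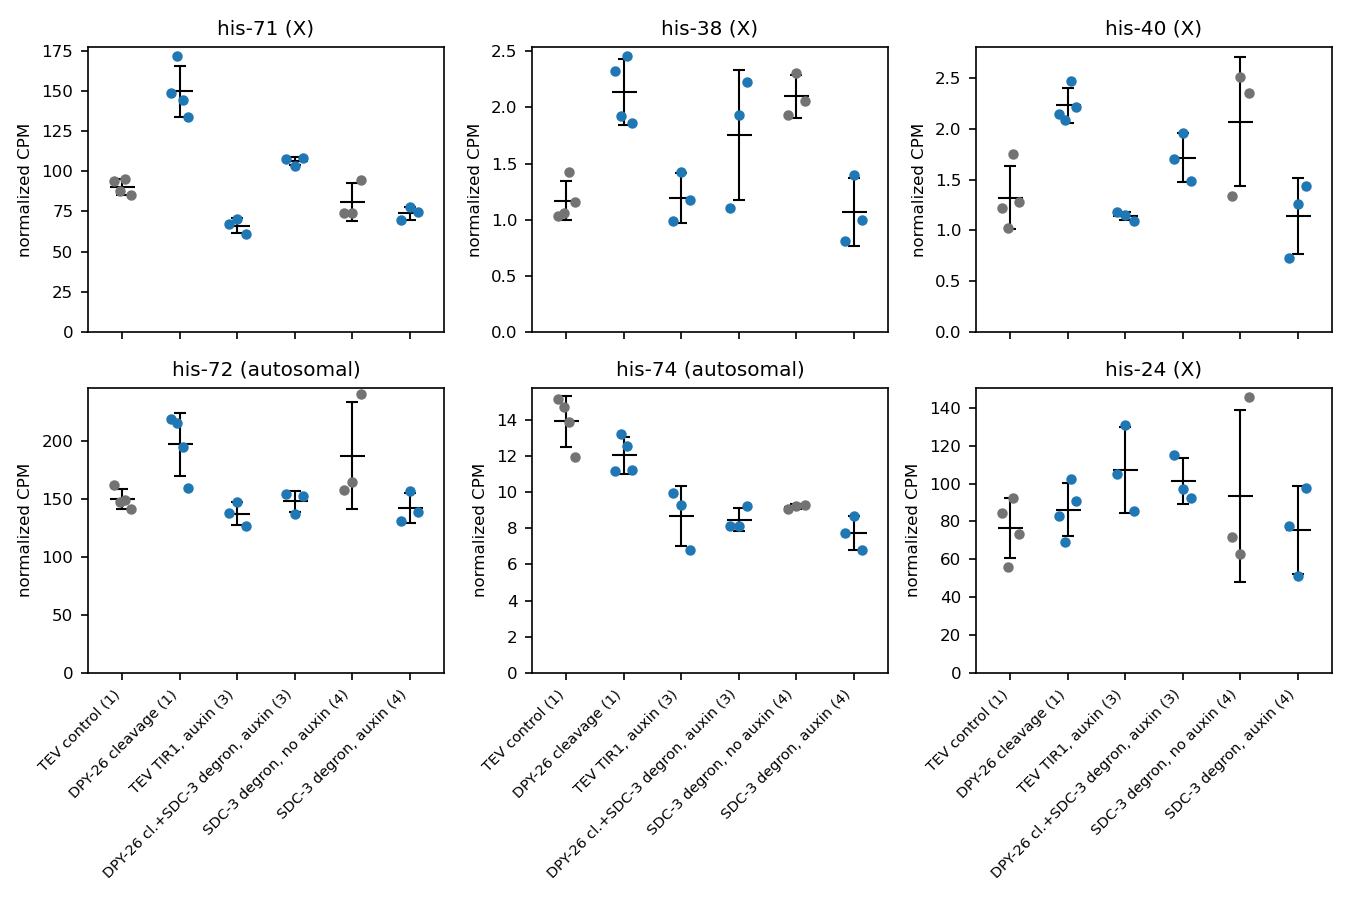
CPM per library of the X-linked members *his-71*, *his-38*, *his-40* and *his-24* and of the autosomal H3.3-type genes *his-72* and *his-74* in 6 groups, with the group mean and SD. After DPY-26 cleavage *his-71* lies at 134 to 172 CPM, above the 85 to 94.9 of the control, while *his-24* overlaps.

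When DPY-26 was cut and SDC-3 degraded together, *his-71* was again the member called higher. It was at 108, 103 and 108 CPM against 66.9, 70.2 and 61.1 CPM in the TIR1 control on auxin (log2 0.68, SE 0.09, interval 0.47 to 0.89, adjusted p 0.00423), and the call remained in all 6 omissions. *his-40* was at 1.71, 1.96 and 1.48 CPM against 1.18, 1.15 and 1.10, without overlap, and did not pass the test (log2 0.58, interval 0.13 to 1.04, adjusted p 0.0891). *his-38* overlapped (log2 0.54, adjusted p 0.275), as did *his-24* (log2 -0.08, interval -0.46 to 0.30). H3.3-type histones stood at 270, 249 and 269 CPM against 214, 227 and 195 (log2 0.31, interval 0.08 to 0.53, adjusted p 0.077). In batch 4, where SDC-3 alone was targeted, *his-71* changed by -0.13 (interval -0.45 to 0.19, adjusted p 0.602).

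In that double condition 1 of 42 members was called higher and 1 lower, where 11.2% of all genes tested were called higher and 3.45% lower, and 49.6% of X-linked genes higher. The lower one was the H3 gene *his-32*, at 3.11, 2.79 and 3.26 CPM against 4.30, 5.22 and 4.26 (log2 -0.59, adjusted p 0.0436). That call was lost in each omission and without the filter on low counts. Relative to a control that also carried TIR1 and auxin, the intronless sum was 43.5, 41.8 and 51.5 CPM against 53.7, 56.4 and 53.8, a 1.20-fold lower mean, and H3 was 12, 12.5 and 14.0 CPM (log2 -0.32, interval -0.59 to -0.05, adjusted p 0.112). No class was called by edgeR or DESeq2, and 3 had an unadjusted p under 0.05. With the replicate number as a block edgeR called 2.

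KLE-2 cleavage gave no call. H3 was at 35.5, 48.6, 91.1 and 29.5 CPM against the batch 1 control (log2 0.17, interval -0.60 to 0.95, adjusted p 0.83). H3.3-type histones were at 256, 291, 605 and 272 CPM (log2 0.49, interval -0.13 to 1.12, adjusted p 0.447). Replicate 3 was highest in both classes, and without it the changes were -0.26 for H3 (adjusted p 0.537) and 0.11 for H3.3-type histones (0.487), with 0 members called. edgeR called 0 of 49 members, where 1.17% of all genes tested were called, with 1 higher and 2 lower at an unadjusted p under 0.05, and DESeq2 called 1 lower. Of the 6 classes, 0 had an unadjusted p under 0.05 and DESeq2 called 0.

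Over the 8 comparisons, H1 from *his-24* was called in none by edgeR or DESeq2 and had an unadjusted p under 0.05 in none, with changes from -0.31 (SDC-3 degron with auxin) to 0.44 (KLE-2 cleavage, interval -0.19 to 1.07). Both ends rest on a library that stood apart, since without it the changes were 0.16 (adjusted p 0.725) and 0.11 (adjusted p 0.767). Core histones together (H2A, H2B, H3 and H4) were called by edgeR in none, the most negative change being -0.68 (interval -1.06 to -0.30, adjusted p 0.0769) with SDC-3 degron and auxin. It was -0.53 and called (adjusted p 0.0334) without the library that stood apart. With TIR1 it was -0.43 (adjusted p 0.12). Both had an unadjusted p under 0.05, and DESeq2 called both (adjusted p 0.0022 and 0.0443). Of histone genes outside the his- symbols 9 of 11 were tested. After DPY-26 cleavage 3 of them were called higher (all genes 15.5%), among them the linker histone genes *hil-7* (log2 0.95) and *hil-3* (0.73). *hil-7* was also called higher after SCC-1 and COH-1 cleavage (0.66) and in the double condition (1.10), and lower with TIR1 (-1.07). *hil-1* was called higher after SCC-1 cleavage (1.62), and *hil-4* and *hil-5* were called lower after cleavage of both cohesin kleisins (-0.82 for each). Genes of histone mRNA processing, 10 tested, had 2 called lower after SCC-1 cleavage (all genes 14.6%), among them the Argonaute gene *csr-1* (-0.39). With both cohesin kleisins cut, 3 were called lower (all genes 11.0%), including *csr-1* (-0.54). Histone chaperones, 15 tested, had 5 called lower there (all genes 11.0%) and 4 after DPY-26 cleavage (all genes 11.9%), and the chromatin assembly factor gene *chaf-2* was called lower with SDC-3 degron and auxin (-0.97, adjusted p 0.0498).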

How the data were processed

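RNA-seq libraries of 40 samples in 12 groups and 4 batches came as 82 tables, one per lane or repeat run. Per the labels, RNA was extracted with Trizol and libraries were made with the Illumina Stranded mRNA kit. The authors deposited, for each of 42938 transcripts, the estimated count of reads from Salmon and its TPM. The submitters' processing notes name cutadapt 2.5, Salmon 1.5.2 and STAR 2.7.9a. The transcriptome release behind these deposited estimates is not given in the sources used here. The methods of the paper test counts per gene with DESeq2. Estimated counts were added up over lanes, then over the transcripts of a gene (WBcel235, Ensembl release 115), and rounded. Of the transcripts, 30905 matched by name and 11992 by sequence name, and 41 had no gene (0.0066% to 0.0128% of reads). A TIR1 control on auxin (replicate 1) had 4 tables, which were summed.

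A minimum of 10 reads was set for 3 of the 6 or 4 of the 8 samples compared, and the genes that reached it, with the class sums, were tested together with edgeR 4.0.16 (quasi-likelihood, TMM over genes alone, Benjamini-Hochberg over all rows tested), each group against the control of its own batch. The threshold was an adjusted p of 0.05. Printed CPM were TMM-normalised within a batch. Alternatives were DESeq2 1.42.0, its size factors, no filter, a replicate block, all groups of a batch in a fit, limma 3.58.1 on log2(TPM + 1), and leaving out each library, plus 2 chosen after seeing the data (DESeq2 with the block, and leaving out the repeat runs). R 4.3.3 and Python 3.11.15 with pandas 2.3.3, numpy 2.4.6 and matplotlib 3.10.9 were used. Counts were also simulated with the sizes of the SDC-3 comparison (13497 genes). Among 100 genes changed by 1 on the log2 scale edgeR called 33 and DESeq2 59. Among 100 changed by 2 they called 86 and 99. Of the unchanged genes edgeR called 7 and DESeq2 50.

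The members and lists were chosen with earlier results of these data known. Classes had been planned from protein sequences, which were not used here. They came from general knowledge of the gene family and were checked against coding length. Genes named were the H1, H3.3-type and X-linked members, the 3 most abundant of each class, up to 4 called members per direction and comparison, and up to 2 called genes per list. Replicates are separate samples in the labels, which do not say that they came from separate cultures, so p-values measure the spread between these samples. The paper describes the COH-1 RNA-seq replicates as biological replicate batches, without tying them to replicate numbers. In batches 2 and 3, Salmon's effective length for a shorter *his-72* transcript was 456.9 to 483.4 nt in replicate 1 of every group. It was 279.5 to 319.5 nt in replicates 2 and 3 of those groups. The main fits did not pair samples by replicate number. The deviations of same-numbered samples correlated at over 0.1 in every pair only for COH-1 cleavage and its control (r 0.444, 0.586 and 0.511). There the block changed no call of a histone class or member. In SCC-1, SCC-1 with COH-1, SDC-3, double and TIR1 comparisons every r was above 0, with the lowest between 0.0472 and 0.0813. The precision of a value is that of the spread between 3 or 4 libraries. Sequences were not analysed here.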

Additional observations from a re-analysis of the deposited data

Results flagged for a closer look

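In 132 groups of 4 libraries, 15 held 1 library far from the other 3, where chance gives about 1 in 20 groups. Of these, 7 were KLE-2 cleavage replicate 3, the library with few mitochondrial reads, which was highest for H3.3-type histones (605 CPM, others 256 to 291), for the spliced trio (619, others 414 to 442), and for *his-35* (262), *his-71* (186), *his-72* (383), *his-40* (3.09, others 1.04 to 1.23) and *his-48* (10.5, others 1.33 to 2.74). DPY-26 cleavage replicate 4 was lowest for the spliced trio (352, others 413 to 423) and for *his-35* (107, others 132 to 135). SCC-1 cleavage replicate 3 was lowest for *his-35* (126, others 147 to 150.0) and *his-38* (0.611, others 0.764 to 0.779). In the TEV control of batch 1, replicate 3 was highest for *his-59* (8.16, others 6.61 to 6.86) and for *his-70* (0.0305, the others at 0), and replicate 4 for *his-69* (0.0923, others 0.0153 to 0.0211). *his-69* was also highest in SCC-1 cleavage replicate 4 (0.183, others 0.0458 to 0.0619). *his-69* and *his-70* rest on a handful of reads per library.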

How the results depend on the processing

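No result changed direction while called. Of 3205 values for single members, classes and listed genes under alternatives, 2942 kept their side of the threshold, 166 lost a call and 97 gained one. Of those not called in either fit, 116 differed in sign. Classes called of 6 were as follows. For DPY-26 cleavage the count was 1, and 2 with DESeq2, 2 with DESeq2 and the block, 2 with limma on TPM, 0 with all groups of the batch, and 1 to 2 with a library left out. For SDC-3 degron with auxin it was 1, and 3 with DESeq2, 4 with DESeq2 and the block, 2 with limma on TPM, and 0 to 2 with a library left out. For TIR1 it was 1, and 4 with the replicate block, with edgeR or DESeq2. For SCC-1 and COH-1 cleavage it was 0, and 2 with DESeq2, 2 with the replicate block, 2 with DESeq2 and the block, 1 with no filter, 1 with all groups of the batch, and 0 to 1 with a library left out. For DPY-26 cleavage with SDC-3 degron it was 0, and 2 with the replicate block and 1 with DESeq2 and the block. For SCC-1 cleavage it was 0, and 0 to 1 with a library left out. KLE-2 and COH-1 cleavage stayed at 0 under each alternative run. Members called lower with the block were 28 for SDC-3 degron with auxin, 19 for TIR1, 12 for both cohesin kleisins, 4 for SCC-1 cleavage and 3 for the double condition. DESeq2 called 31, 18, 12 and 9 lower in the first 4 of these. Limma on TPM shifted the median of all genes by over 0.1 only for both cohesin kleisins (0.17, against 0.01 with edgeR) and called 2 members lower there. For SCC-1 cleavage it called 4 members higher and 2 lower. Over the whole table, edgeR called 201 genes for SDC-3 degron with auxin, the block 981 and DESeq2 1584. The cause of these differences was not tested. Members with under 10 reads in most libraries were not tested, so their changes could not be detected at this depth.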

Other observations

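Salmon divided the reads of *his-72* differently between batches. The longest of its 3 transcripts (897 nt, the others 631 and 642 nt) held a median of 33.5% of the gene's reads in the 16 libraries of batch 1 and at most 0.12% in any library of the other batches. Within batch 1 the share was 0.31% in KLE-2 cleavage replicate 3 and 9.69% in SCC-1 cleavage replicate 4. The batch 1 TEV control lay at 148 to 200 TPM for *his-72*, beside a median of 304 over all 40 libraries. The CPM of *his-72*, which is summed over transcripts, was 141 to 162 in that control. TPM divides by length, but the part of the transcript split in this TPM value was not tested. KLE-2 cleavage replicate 3 is thus the batch 1 library with the transcript share of the other batches, and it also had the fewest mitochondrial reads of its batch (0.0667%).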
